A study of Mus musculus with 30 samples.

Results

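Prrx1 was raised in NIH3T3-CG cells by 2 routes, and the effect measured here is the change under doxycycline in cells transduced with Prrx1 minus the change after transfection with Prrx1. The parent line NIH3T3 derives from mouse embryo fibroblasts, and what its suffix stands for is not explained. The 12 libraries were chosen by their labels out of 30 in the series, 3 in each of 4 groups. In the induction experiment all 6 libraries came from cells with the Prrx1 transduction, and 3 of them from cells given doxycycline. In the transfection experiment 3 libraries came from cells given Prrx1 and 3 from cells given a control plasmid, the latter also serving a Snai1 transfection. The series title sets these factors in a study of how single cells differ in their answer to Hedgehog, and Hedgehog ligand is not among the labelled treatments.

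The labels give no vector, promoter, clone, dose or time for either route. No group shows doxycycline without the Prrx1 construct. Doxycycline itself, the amount of Prrx1, the act of transfection, the time after delivery and the date of each experiment therefore cannot be told apart from the route. Whether replicates are separate cultures is unknown, so the p-values measure spread among libraries that may be only technical. In bulk RNA, a change in fewer cells and a smaller change per cell cannot be told apart either.

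Prrx1 is a homeodomain transcription factor of limb, craniofacial and other mesenchyme. Its homeodomain binds DNA with a TAAT core, and its splice forms share the homeodomain and differ in their carboxy-terminal end. In mesenchymal cells it is known for its part in matrix production, migration and lineage choice, and it is widely used as a marker of fibroblast progenitors.

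Depth, as total estimated counts, was 7996355 to 12600603 with doxycycline, 8506132 to 17129632 without, 18020141 to 20638309 with Prrx1 plasmid and 19574031 to 20961571 with control plasmid. The leading principal component held 77.3% of the variance and separated the experiments. No-doxycycline replicate 2 stood apart on the next one, which held 6.63%, and had counts for 16724 genes against 20839 and 19512 in its group. Of 15 fibroblast markers 13 were tested, and their summed level was 17380 to 23820 CPM (counts scaled to library size) in the 12 libraries. Muscle markers summed to 6.95 to 21.5 CPM, epithelial markers to 7.41 to 14.4, endothelial markers to 6.21 to 25.9 and immune markers to 16.2 to 43.3. Neural markers summed to 27.7 to 35.5 CPM in the induction and 58.5 to 108.5 CPM in the transfection experiment. Some members, such as Myf5, Tyrobp, Cldn5 and Sox17, had 0 counts. Others had counts in all 12 libraries, among them Cd14 (2860 in total), Pecam1 (1386), Des (1221) and Lyz2 (1122).

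The transcripts of Prrx1 itself changed unequally by both routes. The gene lies on the minus strand of chromosome 1 (GRCm38, chr1:163245119-163313710). Prrx1-202 includes a 72-base exon (chr1:163253977-163254048) that holds its last 52 coding bases, while Prrx1-201 skips this exon and ends its reading frame with 136 coding bases of the final exon. The ends of both reading frames are printed because they separate Prrx1-202, which rose, from Prrx1-201, which did not, with the stop codon in capitals.
Prrx1-202, end of the reading frame (chr1:163253994-163254048, minus strand, GRCm38): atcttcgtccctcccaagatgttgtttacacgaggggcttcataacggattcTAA
Prrx1-201, end of the reading frame (chr1:163248258-163248396, minus strand, GRCm38): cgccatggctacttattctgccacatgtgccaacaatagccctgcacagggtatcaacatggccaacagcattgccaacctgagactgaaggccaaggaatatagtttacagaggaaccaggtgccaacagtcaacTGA

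By the authors' transcript estimates, Prrx1-202 was at 162, 183 and 228 TPM (length-scaled transcript abundance) without doxycycline and at 884, 941 and 1083 TPM with it. It was at 47.4, 35.0 and 40.2 TPM with control plasmid and at 2440, 2367 and 3093 TPM with Prrx1 plasmid. Both routes thus raised the form with the 72-base exon without overlap between groups. Prrx1-201 was at 41.1, 60.8 and 45.96 TPM without doxycycline and at 38.9, 34.2 and 30.9 TPM with it. In the transfection experiment it was at 58.7, 102.9 and 101.6 TPM with control plasmid and at 39.95, 46.2 and 47.2 TPM with Prrx1 plasmid. This form did not rise by either route, and its groups did not overlap in either experiment. Prrx1-204, a further coding transcript, was at 33.1 to 44.7 TPM without doxycycline and 65.5 to 76.5 TPM with it, and at 9.22 to 20.8 TPM with control plasmid and 29.9 to 37.1 TPM with Prrx1 plasmid, with no overlap in either experiment. Prrx1-205, a noncoding transcript that shares the 72-base exon, was at 11.2 to 51.9 TPM without doxycycline and 94.5 to 539 TPM with it, and at 28.6 to 87.6 TPM with control plasmid and 6672 to 9220 TPM with Prrx1 plasmid. Reads of a delivered construct were assigned among these annotated transcripts, so their split is an estimate.

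The level of Prrx1 rose by unlike amounts. Over its transcripts, Prrx1 was at 911, 915 and 1046 CPM without doxycycline and at 3506, 3598 and 3940 CPM with it. It was at 502, 656 and 664 CPM with control plasmid and at 15140, 15040 and 20060 CPM with Prrx1 plasmid. All 4 groups were apart from one another, in the order control plasmid, no doxycycline, doxycycline, Prrx1 plasmid. The log2 change was 1.94 ± 0.126 (standard error, SE) by induction and 4.79 ± 0.142 by transfection, and the difference was −2.84 ± 0.175 (edgeR quasi-likelihood test, Benjamini-Hochberg adjusted p = 2.32e-07, n = 3 per group). In CPM, the gain was 2724 by induction and 16140 by transfection, a 5.92-fold larger gain, and the level without doxycycline was already 1.58 times that with control plasmid. Prrx2, the closest relative of Prrx1, was at 0.987 to 6.30 CPM in the induction experiment and 24.1 to 31.8 CPM in the transfection experiment, and its difference of 0.52 ± 0.423 did not pass (adjusted p = 0.606).

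**Figure D1:**
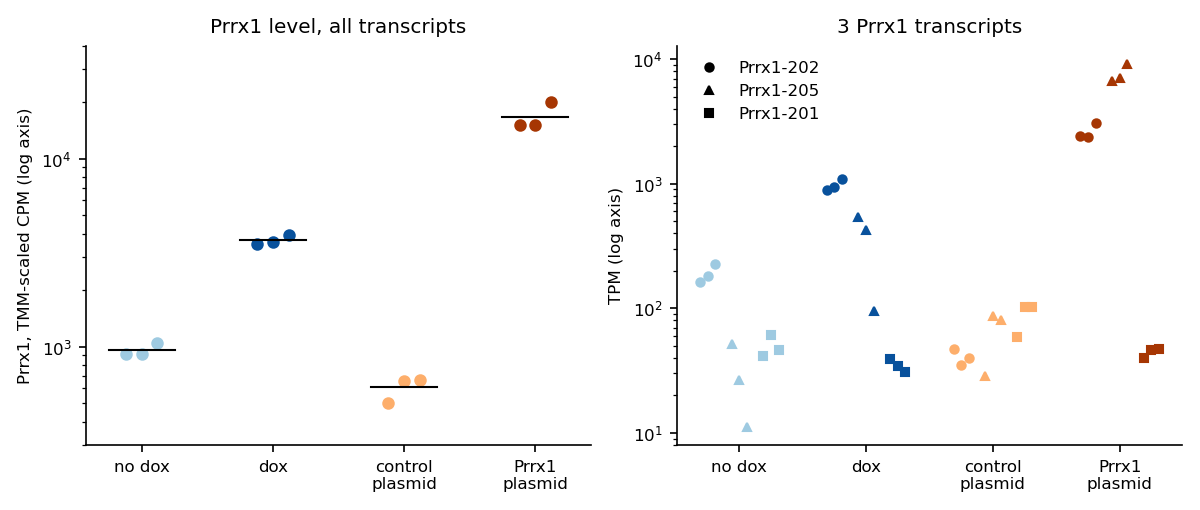
Left, Prrx1 level in TMM-scaled CPM (log axis) in each of the 12 libraries, with a bar at the group mean. Right, TPM (log axis) of Prrx1-202, Prrx1-205 and Prrx1-201 in the same libraries: the first 2 are highest with Prrx1 plasmid, and Prrx1-201 is lower in both Prrx1 groups than in their controls.

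Most of the genes that depended on the route changed with doxycycline and little after transfection. A gene was called when its adjusted p was under 0.05. In the difference 612 of 15218 tested genes were called (4.02%), 302 higher (1.98%) and 310 lower (2.04%). Higher and lower in the difference give the sign of induction minus transfection, not that of the change by induction alone. Induction alone called 1137 genes (7.47%), 562 higher (3.69%) and 575 lower (3.78%), and transfection 41 (0.269%), 32 higher (0.21%) and 9 lower (0.0591%). Of the 612 genes, 530 had the larger change by induction, 488 were also called by induction and 27 by transfection. For 101 neither change was called by itself, and in 100 of these both changes had opposite signs. Selection on the difference favours opposite signs where neither change passes alone, so this count is no separate result. Over 2-fold apart were 194 of the 612 and over 4-fold 63.

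Among the 302 higher genes the median log2 change was 0.66 by induction and −0.11 by transfection. Among the 310 lower genes it was −0.62 by induction and 0.16 by transfection. Over all tested genes both medians were near 0, at −0.01 and 0.01. The groups did not overlap for 563 of the 612 genes in the induction experiment and for 231 in the transfection experiment, where 24% and 17.9% of all tested genes did not overlap. The 612 were selected on the difference in these same libraries, so their medians and overlaps describe the selected genes and are no separate support. The same applies to the genes named below for the highest and lowest differences. Across 15218 genes the changes by both routes had a Pearson correlation of 0.02 and a Spearman correlation of −0.02. These experiments share no library, and genes are not independent replicates.

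**Figure D2:**
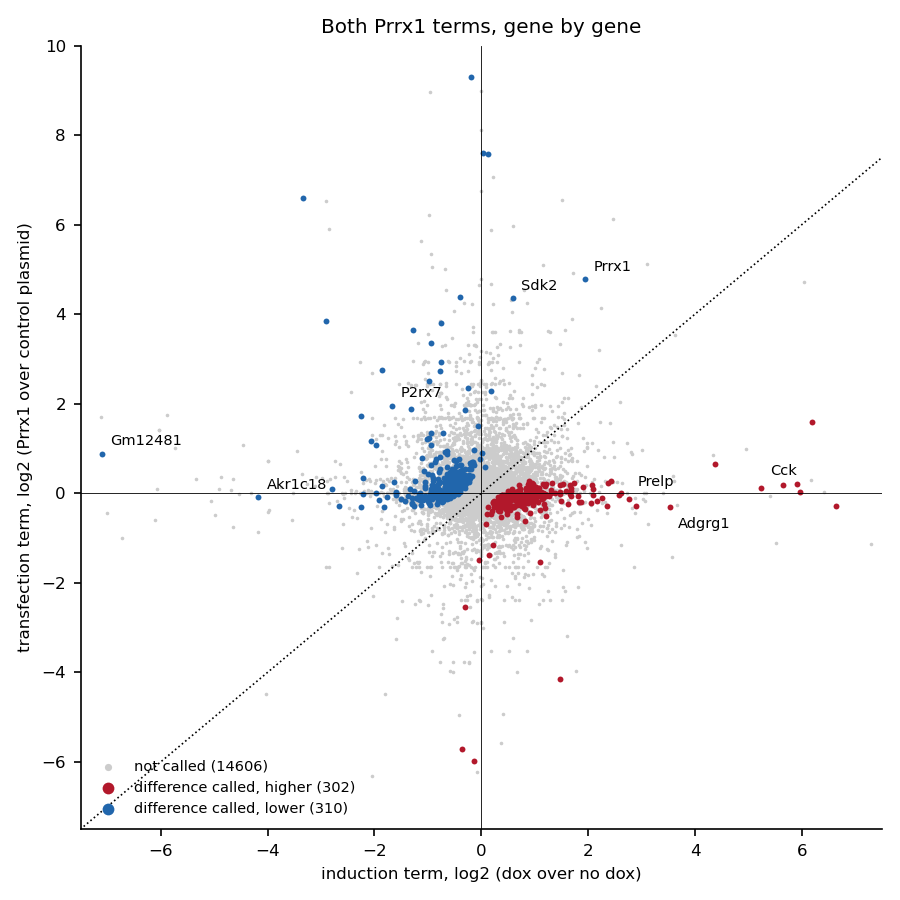
Log2 change by induction (x axis) against log2 change by transfection (y axis) for each tested gene, with the 302 genes called higher and the 310 called lower in the difference coloured. Called genes lie mostly along the horizontal axis, where transfection changed little, and Prrx1 and Sdk2 lie near the top. The axes leave out 11 genes, 2 of them called.

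The size of the count rested on single libraries. It fell to 299 without Prrx1 plasmid replicate 1, 356 and 381 without replicates 2 and 3 of that group, 337 and 353 without control plasmid replicates 3 and 2, and 378, 351 and 390 without doxycycline replicates 1, 2 and 3. It rose to 1118 without control plasmid replicate 1 and to 942 without no-doxycycline replicate 2. Of the 612 genes, 256 kept their call in each of the 12 fits that left out 1 library (12 refits below). In what follows, a gene printed with a number of refits kept its call in that many of 12, and a called gene without such a number kept it in all 12. This mark covers left-out libraries and no other setting. With limma on log2(TPM + 1), 192 of the 612 were called. Among the genes named below, these include 10 of the 12 highest and 4 of the 12 lowest differences.

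Genes that rose with doxycycline and were not called by transfection lead the difference. Among called protein-coding genes with at least 5 CPM in 1 of the 4 groups, the 12 with the highest differences were taken. For these the log2 change by induction was 1.84 to 5.24 and called in 12 of 12, and the change by transfection was −0.31 to 0.28 and called in 0. They encode a peptide hormone, an adhesion receptor, a cadherin, matrix and innate immune proteins, aldehyde and thyroid hormone enzymes and a transcription factor.

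Adgrg1, an adhesion G protein-coupled receptor (chr8:94974751-95014217), was at 4.13, 3.62 and 2.90 CPM without doxycycline and at 41.4, 42.4 and 41.0 CPM with it. It was at 5.87, 4.59 and 5.68 CPM with control plasmid and at 3.87, 5.45 and 3.63 CPM with Prrx1 plasmid. The doxycycline libraries stood above the other 9. Among those, the no-doxycycline libraries lay below the control plasmid libraries, and the Prrx1 plasmid libraries overlapped both. The difference was 3.84 ± 0.254 (adjusted p = 2.32e-07).

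Cck, the gene of the hormone cholecystokinin (chr9:121489824-121495694), had the highest difference among the named genes, 5.12 ± 0.586 (adjusted p = 0.000149). It was at 0.233, 0 and 0.171 CPM without doxycycline and at 4.65, 6.12 and 7.68 CPM with it. With control plasmid it was at 51.7, 34.6 and 33.7 CPM and with Prrx1 plasmid at 40.04, 35.5 and 55.5 CPM. The induced level thus lay below the level of the plasmid controls, and the plasmid groups overlapped.

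Aldh1a1 (chr19:20492715-20643465) and Aldh1a7 are aldehyde dehydrogenases, the former an enzyme of retinoic acid synthesis. Aldh1a1 was at 126, 128 and 104 CPM without doxycycline and at 610, 611 and 699.8 CPM with it, while its 6 plasmid libraries lay between 2.44 and 3.96 CPM. Its difference was 2.14 ± 0.209, and that of Aldh1a7, 86.2% of whose 31-base stretches are unique to it, was 3.19 ± 0.242. Both genes were high in the transduced cells before doxycycline and low in the transfection experiment.

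Arnt2, a bHLH-PAS transcription factor (chr7:84246278-84410176), was at 12.6, 7.68 and 14.3 CPM without doxycycline and at 58.9, 55.3 and 55.3 CPM with it. It was at 35.2, 29.0 and 29.8 CPM with control plasmid and at 25.9, 27.6 and 33.8 CPM with Prrx1 plasmid, and the difference was 2.37 ± 0.230. Cdh11, a cadherin of mesenchymal cells (chr8:102632095-102785642), went from 11.1, 9.21 and 9.13 CPM to 36.4, 35.0 and 36.0 CPM with doxycycline. With control plasmid it was at 14.96, 16.1 and 15.4 CPM and with Prrx1 plasmid at 14.1, 13.8 and 12.7 CPM, a difference of 2.05 ± 0.165. For Cdh11 the plasmid groups did not overlap either, and the Prrx1 libraries were the lower ones.

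The others of these 12 genes were Prelp (2.89), a leucine-rich proteoglycan of connective tissue, Ptx3 (2.64), a soluble pattern recognition protein, and Fgd3 (2.35), an exchange factor for small GTPases. Ly6c1 (2.14, 53.2% unique 31-mers), a surface antigen, Dio2 (2.14), which activates thyroid hormone, and Serpinb9g (2.04, 32.1% unique 31-mers, 9 refits), a protease inhibitor, complete them. Ptx3 was at 5.59, 8.22 and 2.39 CPM without doxycycline and at 26.1, 26.1 and 29.0 CPM with it, and 0.596 to 1.37 CPM in the 6 plasmid libraries. Dio2, like Cck, was higher in the plasmid libraries (35.6 to 52.9 CPM) than with doxycycline (9.31 to 12.01 CPM).

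The 12 lowest differences under the same limit of 5 CPM were of 2 kinds. In 4 genes the larger change was a fall with doxycycline, of −4.18 to −2.22, with −0.31 to −0.02 by transfection. In 8 genes it was a rise after transfection, of 1.23 to 4.79, with −1.67 to 1.94 by induction.

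Of the genes that fell with doxycycline, Ccl9, a chemokine (chr11:83572919-83578636), was at 24.1, 37.4 and 30.96 CPM without it and at 6.51, 6.66 and 6.08 CPM with it. It was at 36.7, 34.8 and 38.3 CPM with control plasmid and at 29.1, 33.6 and 25.6 CPM with Prrx1 plasmid, and its difference was −1.94 ± 0.217 (adjusted p = 5.21e-05). Both pairs of groups were apart, and in each the Prrx1 libraries were the lower ones. Cp, the copper-binding oxidase ceruloplasmin (chr3:19957054-20009145), went from 5.82, 4.39 and 6.23 CPM to 1.63, 0.548 and 0.608 CPM, while the plasmid libraries held 38.1 to 57.3 CPM. Its difference was −2.39 ± 0.344. Akr1c18 (−4.09), a progesterone-metabolising reductase, and Tnfaip6 (−2.19, 11 refits), a hyaluronan-binding protein, fell from low levels, with at most 1.63 and 2.85 CPM in the induction experiment.

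Of the genes that rose after transfection, Sdk2, an immunoglobulin-type adhesion protein of synapses (chr11:113776374-114067046), was at 0.443, 0.454 and 0.659 CPM with control plasmid and at 9.77, 10.9 and 11.7 CPM with Prrx1 plasmid. It was at 1.63, 0.877 and 1.11 CPM without doxycycline and at 2.44, 2.19 and 1.14 CPM with it, and those groups overlapped. The change was 4.36 by transfection and 0.59 by induction, and the difference was −3.76 ± 0.477 (adjusted p = 0.000158). P2rx7, an ATP-gated ion channel (chr5:122643911-122691432), went from 6.26, 4.89 and 5.33 CPM to 17.0, 20.8 and 26.3 CPM by transfection and was at most at 0.466 CPM in the induction experiment (difference −3.62 ± 0.930, adjusted p = 0.0366, 3 refits, adjusted p up to 0.249).

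Vgf, a neuropeptide precursor (chr5:137026392-137033351), was at 5.32, 4.29 and 4.51 CPM with control plasmid and at 11.4, 9.97 and 14.5 CPM with Prrx1 plasmid. It was at 2.79, 1.65 and 3.16 CPM without doxycycline and at 1.05, 1.55 and 1.98 CPM with it, groups that overlapped, for a difference of −2.06 ± 0.385. The remaining 4 with a larger transfection change rest on shared sequence or on few reads. Asdurf (0% unique 31-mers, 3 refits), Olfr986 (89.2% unique, 4 refits), Plce1 (2 refits) and Hist1h4n (12.5% unique, 11 refits) reached at most 1.85 CPM in the transfection experiment and were called in neither change.

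**Figure D3:**
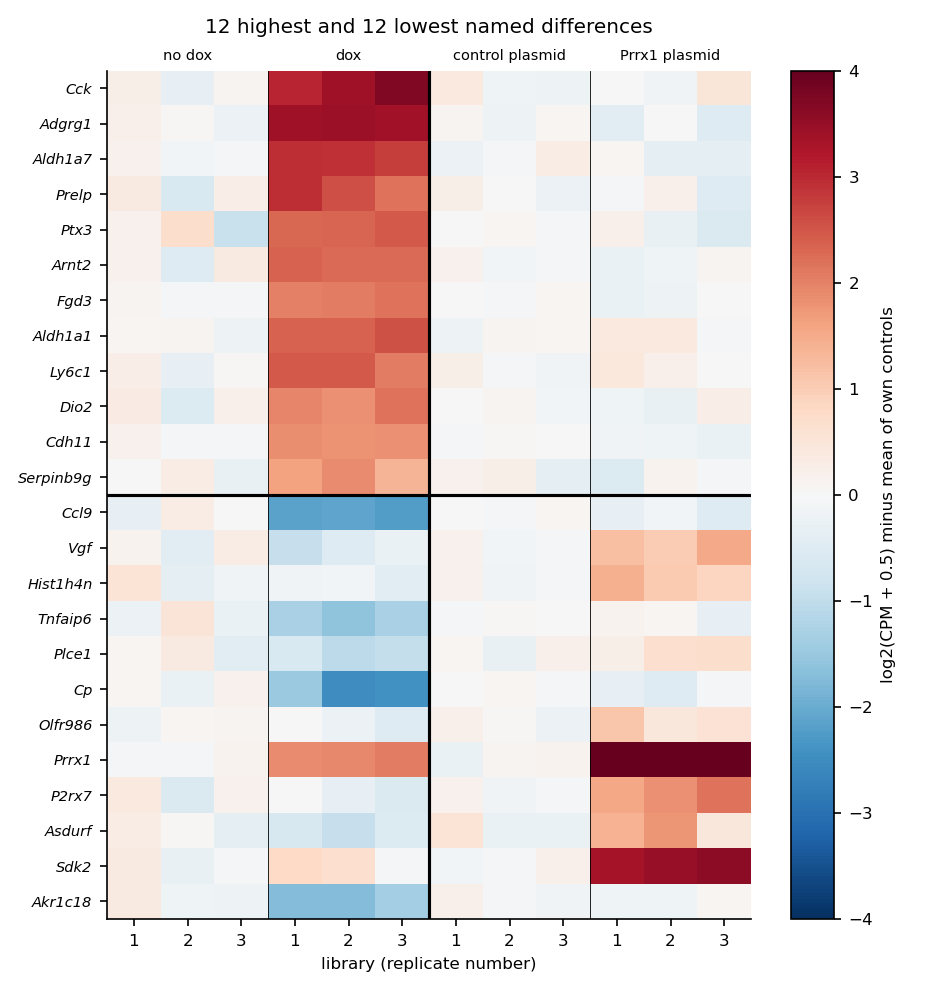
log2(CPM + 0.5) of the 12 highest and 12 lowest named differences in each of the 12 libraries, minus the mean of the controls of the same experiment (no doxycycline or control plasmid). The colour scale is clipped at 4 on either side. The upper block is red with doxycycline and pale with Prrx1 plasmid, and in the lower block some genes are blue with doxycycline and others red with Prrx1 plasmid.

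The 27 genes called both in the difference and by transfection often share sequence with other genes. Of them 16 have under 90% unique 31-mers and 11 are pseudogenes, 15 are protein coding and 1 is the added sequence GFP, against 159 of all 612 under 90%. Below 90% a value is uncertain, as near-identical sequences elsewhere could take or give reads. Besides Prrx1, Sdk2, P2rx7 and Vgf, the protein-coding ones with at least 90% unique 31-mers include Hydin (−4.94, 10 refits), Csrnp2, Hnrnpa0 (−0.89), Snrpd2 (−0.87, 11 refits) and Glrx5 (−0.84, 8 refits), a set listed after its values were seen. Csrnp2, a nuclear protein, went from 20.8, 27.0 and 24.3 CPM to 41.6, 45.6 and 47.4 CPM by transfection (0.90) with 0.02 by induction, and its difference was −0.88 ± 0.179.

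The Snai1 transfection shares its control plasmid libraries with that of Prrx1. Its own log2 changes were −0.16 for Sdk2, −0.08 for P2rx7, 0.38 for Vgf and 0.11 for Csrnp2, but 0.81 for Hnrnpa0, 0.71 for Glrx5 and 0.62 for Snrpd2. With the Snai1 libraries as controls in place of the control plasmid libraries, 8 of the 41 transfection calls were kept. They are Prrx1, Sdk2, P2rx7, Csrnp2, Psca, Tmem132b, Fras1 and Tshz2 (32.8% unique 31-mers).

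By both routes 5 genes were called. Prrx1 rose by both, and so did Psca, a small surface protein, at 6.46, 6.25 and 5.03 CPM without doxycycline, 14.7, 11.96 and 11.2 CPM with it, at most 0.101 CPM with control plasmid and 0.411 to 0.542 CPM with Prrx1 plasmid. Its difference of −1.92 did not pass (adjusted p = 0.111), with a 95% interval of −3.26 to −0.59 before adjustment. The other 3 moved in opposite directions and are pseudogenes with little sequence of their own: Gm12481 (difference −7.98, 0% unique 31-mers), Gm15280 (−2.01, 31.6%) and Gm6166 (1.45, 21.9%). By Prrx1 transfection they changed by 0.89, 1.075 and −0.62. The Snai1 transfection, with the same control libraries, gave 0.87, 0.99 and −0.69. With the Snai1 libraries as controls, their changes by Prrx1 transfection were −0.003, 0.06 and 0.05.

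Several mesenchymal regulators and adhesion molecules were called higher in the difference. Of 27 tested mesenchymal transcription factors 6 were called higher and 0 lower (22.2%, against 4.02% of all tested genes), with a median difference of 0.20 against −0.03 for all genes. Members of this and all later lists were chosen with earlier results of these data known. Their shares are therefore descriptive and test no enrichment. Snai2, a repressor of epithelial genes, was at 49.0, 46.6 and 50.2 CPM without doxycycline and at 111, 104 and 123 CPM with it. It was at 15.3, 20.9 and 20.2 CPM with control plasmid and at 14.2, 12.8 and 12.8 CPM with Prrx1 plasmid, so it moved up by one route and lay lower, without overlap, by the other (difference 1.72 ± 0.164). Zeb2 (0.63) and Zeb1 (0.62, 10 refits) encode further repressors of epithelial genes, at 0.34 and 0.39 by induction and −0.29 and −0.23 by transfection. Snai2, Zeb2 and Zeb1 were not called by transfection. The Snai1 transfection, with the same control libraries, gave −0.27, −0.27 and −0.19 for them. Runx1 (0.61) and Arnt2 were also among the called members.

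Of 26 cadherins and adhesion receptors 7 were called higher and 1 lower (30.8%, against 4.02% of all tested genes). Besides Adgrg1 and Cdh11 these include Vcam1 (1.10), a ligand of leukocyte integrins, which was at 111 to 116 CPM without and 208 to 212 CPM with doxycycline and at 53.05 to 76.1 CPM in the plasmid libraries. Adgrl2 (1.02), Itgbl1 (0.98, 3 refits), Itgb3 (0.75, 3 refits) and Itgb5 (0.63), the last 2 integrin subunits, were higher as well. Alcam, an immunoglobulin-type adhesion molecule, was the lower one (−1.16, 7 refits). The 5 tested epithelial markers gave 0 calls by edgeR, 0 by DESeq2 and 0 at an unadjusted p under 0.05, with a median difference of −0.53.

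The extracellular matrix changed in both directions. Of 22 fibrillar collagens and collagen processing genes 3 were called higher and 1 lower (18.2%, against 4.02% of all tested genes), with a median of 0.01. Col5a2, a chain of the fibre-nucleating collagen V, was at 649.9, 584 and 605 CPM without doxycycline and at 1179, 1220 and 1187 CPM with it. With control plasmid it was at 320.3, 329.5 and 359.9 CPM and with Prrx1 plasmid at 348, 376 and 291.5 CPM, and the difference was 0.96 ± 0.133. Its partner chain Col5a1 (0.69) and the collagen-crosslinking oxidase Loxl3 (1.10) were higher as well. Col3a1, a fibrillar collagen of soft tissue, was lower (−0.69), at 464 to 503 CPM without and 230.1 to 269 CPM with doxycycline.

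Of 12 other collagens 3 were higher and 1 lower (33.3%, against 4.02% of all tested genes). They were Col27a1 (0.89, 4 refits), Col6a3 (0.62, 10 refits) and Col4a1 (0.42, 3 refits) against the anchoring-fibril collagen Col7a1 (−1.57). Among 31 matrix glycoproteins 3 were higher and 2 lower (16.1%). Thbs2, a thrombospondin, was at 188 to 198 CPM without and 409 to 433 CPM with doxycycline, and at 559 to 701 CPM in the plasmid libraries (1.10 ± 0.130). Tnc, tenascin C, a gene reported downstream of Prrx1, was at 209 to 231 CPM without and 118 to 131 CPM with doxycycline, and at 1008 to 1472 CPM in the plasmid libraries (−0.89). Tnxb (0.76, 9 refits), Ccn4 (0.63, 3 refits) and Spp1 (−0.61, 85.7% unique 31-mers, 7 refits) were the other called members.

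Of 8 genes reported downstream of Prrx1, 1 was higher, Tgfb3 (0.56, 4 refits), and 1 lower, Tnc. Of 10 small leucine-rich proteoglycans 2 were higher, Prelp and Podnl1 (0.68, 6 refits), while the list median was −0.19. Of 18 metalloproteinases and tissue inhibitors 1 was higher, Timp3 (0.91, 78.1% unique 31-mers), an inhibitor, and 1 lower, Adam12 (−0.94), a protease. Of 9 plasminogen activators and serpins 2 were lower, among them the urokinase gene Plau (−1.05). In this order, the called shares of these lists were 25%, 20%, 11.1% and 22.2%, against 4.02% of all tested genes.

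Several sterol and retinoid enzymes were called higher in the difference. Of 27 cholesterol synthesis and uptake genes 8 were called higher and 0 lower (29.6%, against 4.02% of all tested genes), 23 had a positive difference, and the median was 0.25, from 0.22 by induction and −0.04 by transfection. Msmo1, a methylsterol oxidase, was at 222, 182 and 243 CPM without doxycycline and at 312, 300.1 and 297 CPM with it. With control plasmid it was at 424, 427 and 423 CPM and with Prrx1 plasmid at 364, 356 and 375 CPM, so the groups were apart in both experiments and in opposite directions (0.71 ± 0.131). Ebp (0.79), Sqle (0.58), Cyp51 (0.57), Hmgcs1 (0.55, 86.9% unique 31-mers, 2 refits), Idi1 (0.55, 72.9% unique, 7 refits), Fdft1 (0.50, 68.1% unique, 5 refits) and Dhcr7 (0.90, 3 refits) encode other steps of the same pathway. Of 22 retinoid and aldehyde metabolism genes 3 were higher (13.6%), Aldh1a7, Aldh1a1 and the retinoic acid-binding protein Crabp1 (0.76).

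Of 14 adipocyte genes 3 were higher and 0 lower. They are the lipase inhibitor Angptl4 (1.68), at 16.2 to 27.2 CPM without and 59.9 to 67.4 CPM with doxycycline and 148 to 176 CPM in the plasmid libraries, the fatty acid carrier Fabp4 (2.63, 8 refits) and Adipor2 (0.46, 6 refits). Of 25 fatty acid and lipid synthesis genes 2 were higher, Elovl5 (0.65) and Elovl6 (0.46, 2 refits), and 1 lower, Plin2 (−0.57, 4 refits). Of 31 Nrf2 oxidative stress genes 2 were higher, Nqo1 (1.26) and Sod3 (1.37, 10 refits), and 1 lower, Sod1 (−0.57, 4 refits). Of 18 iron and copper genes 2 were higher, the ferroxidase Heph (0.96) and the metalloreductase Steap2 (0.67), and 1 lower, Cp. Called shares of these lists, in order, were 21.4%, 12%, 9.68% and 16.7%, against 4.02% of all tested genes.

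The Hedgehog pathway differed at Gli2, the main activator of its transcription. Gli2 (chr1:118834132-119053619) was at 18.6, 25.7 and 19.3 CPM without doxycycline and at 62.4, 58.3 and 55.4 CPM with it. With control plasmid it was at 20.7, 24.0 and 23.7 CPM and with Prrx1 plasmid at 22.7, 21.9 and 22.6 CPM. The 9 libraries without doxycycline overlapped, and the 3 with it lay above them (1.51 ± 0.172, adjusted p = 6.48e-05). The changes were 1.48 by induction and −0.03 by transfection.

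Of 29 Hedgehog pathway components 2 were called higher and 0 lower, Gli2 and the coreceptor Gas1 (0.97, 81.8% unique 31-mers, 8 refits). That share, 6.90%, is near the 4.02% of all tested genes. Of 11 Hedgehog target genes 1 was higher, Ccnd1 (1.30, 77.7% unique 31-mers), which encodes cyclin D1. It was at 119, 112 and 102 CPM without doxycycline, at 253, 286 and 291 CPM with it, and at 267 to 299 CPM in the plasmid libraries. The classical target Gli1 (−0.61 ± 0.415, adjusted p = 0.51), the receptor Ptch1 (0.04 ± 0.236, 0.964) and the transducer Smo (0.41 ± 0.174, 0.231) did not pass, nor did Gli3 (0.16 ± 0.168, 0.695). Of 47 primary cilium genes 1 was lower, Ift20 (−0.75, 3 refits). The called share was 9.09% for Hedgehog targets and 2.13% for cilium genes, against the same 4.02%.

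Several signalling lists held calls in both directions. Of 18 genes on the Wnt list 3 were higher, the ubiquitin ligase Rnf43 (1.02, 11 refits), Dkk3 (0.80, 3 refits) and the ligand Wnt5a (0.70, 2 refits). The lower one was Wnt9a (−0.78, 6 refits), and the list median was 0.38. Of 30 TGF-beta and BMP genes 2 were higher and 2 lower, with Tgfbi (1.35) the highest, Tgfb3 the other one, and the inhibitor Smad7 (−0.64) among the lower ones. Of 19 growth factor receptors 2 were higher, Pdgfrb (0.90) and Fgfr2 (0.69, 6 refits). Of 12 Notch pathway genes 1 was lower, Notch4 (−1.09, 3 refits). By list, in this order, 22.2%, 13.3%, 10.5% and 8.33% were called, against 4.02% of all tested genes.

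Immediate early genes answer stimuli within minutes. Of 33 tested 6 were called lower in the difference and 1 higher, while 26 did not pass (21.2% called, against 4.02% of all tested genes). The median difference was −0.35, which is also the median by induction. Fosb, a subunit of AP-1, was at 13.5, 19.4 and 10.7 CPM without doxycycline and at 5.002, 4.47 and 4.79 CPM with it. It was at 16.2, 21.8 and 26.9 CPM with control plasmid and at 21.3, 24.1 and 20.3 CPM with Prrx1 plasmid, groups that overlapped (−1.62 ± 0.301). Jund (−1.13, 49.9% unique 31-mers), Dusp5 (−0.99, 78.8% unique), Junb (−0.91), Arc (−1.63, 5 refits) and Gadd45b (−0.81, 4 refits) were lower too. Klf4, a zinc finger factor, was the higher one (1.20 ± 0.107), at 87.5 to 97.7 CPM without and 202 to 210 CPM with doxycycline and at 141 to 159 CPM in the plasmid libraries.

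Of 10 prostaglandin synthesis genes 3 were lower and 0 higher. Akr1b3, an aldose reductase, was at 3973, 3934 and 3725 CPM without doxycycline and at 1759, 1733 and 1697 CPM with it, and at 1082 to 1245 CPM in the plasmid libraries (−1.15 ± 0.111, 84.8% unique 31-mers). Ptgs2, cyclooxygenase 2, was at 415 to 472 CPM without and 148 to 176 CPM with doxycycline, and its control plasmid libraries spread from 542 to 984 CPM (−1.27, 2 refits, adjusted p up to 0.1). Pla2g4a (−0.56, 4 refits) encodes the phospholipase that frees arachidonic acid. Of 17 chemokines and cytokines 1 was higher, Ccl8 (2.27, 5 refits), and 1 lower, Ccl9. Of 35 interferon response genes 2 were higher, Ifi203 (0.998, 78.1% unique 31-mers) and Ifit2 (0.61, 5 refits), and edgeR called 0 of 16 NF-kB genes, with 2 at an unadjusted p under 0.05 and 1 called by DESeq2. Shares called were 30% for prostaglandin, 11.8% for chemokine and cytokine and 5.71% for interferon genes, against 4.02% of all tested genes.

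Stress and glycolysis lists held few calls. Of 34 unfolded protein and integrated stress genes 3 were lower, Creld2 (−0.65, 4 refits), Ddit4 (−0.56, 4 refits) and Pdia4 (−0.52, 2 refits), with a median of −0.17. Of 34 glycolysis and hypoxia genes 3 were lower, the growth factor Vegfa (−0.69), the glucose transporter Slc2a1 (−0.48, 4 refits) and Ldha (−0.43, 80.4% unique 31-mers, 2 refits), with a median of −0.16. Of 26 p53 targets 2 were lower, the kinases Plk2 (−0.93) and Plk3 (−0.78, 4 refits). Of 23 heat shock chaperones edgeR called 0, with 5 at an unadjusted p under 0.05, 1 called by DESeq2 and a median of −0.18. Of 40 replication and mitosis genes edgeR and DESeq2 called 0, with 5 at an unadjusted p under 0.05 and a median of −0.01. Of 18 G1 cyclins and inhibitors 1 was higher, Ccnd1, and 1 lower, Ccne1 (−0.57, 4 refits). Against 4.02% of all tested genes, 8.82% of the stress, 8.82% of the glycolysis, 7.69% of the p53 and 11.1% of the G1 list were called.

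Of 26 contractile and SRF target genes 1 was higher, Fhl2 (0.92), and 2 lower, Myh9 (−0.54, 5 refits) and Actn1 (−0.43, 3 refits). Of 11 cartilage and bone genes 1 was higher, Tnfrsf11b (1.73, 3 refits), and 1 lower, Spp1. Of 18 circadian clock genes 1 was higher, Arntl (0.78, 4 refits). Among marker lists, fibroblast markers gave Pdgfrb higher and Col3a1 lower of 13, immune markers Lyz2 higher (1.21, 67.2% unique 31-mers, 3 refits) of 7, and muscle and endothelial markers 0 of 7 and 0 of 3 by edgeR, by DESeq2 and at an unadjusted p under 0.05. Of 12 neural markers 1 was higher, Cck, and 4 lower: Sdk2, Vgf, Rbfox3 (3 refits) and Kif5a (−1.60, 3 refits). The summed level of neural markers was 27.7 to 35.5 CPM in the induction experiment, 58.5 to 82.1 CPM with control plasmid and 86.1 to 108.5 CPM with Prrx1 plasmid. Rbfox3, a neuronal splicing factor, was at 0.655, 0.822 and 0.867 CPM with Prrx1 plasmid and listed at 0 in the control plasmid and doxycycline libraries.

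**Figure D4:**
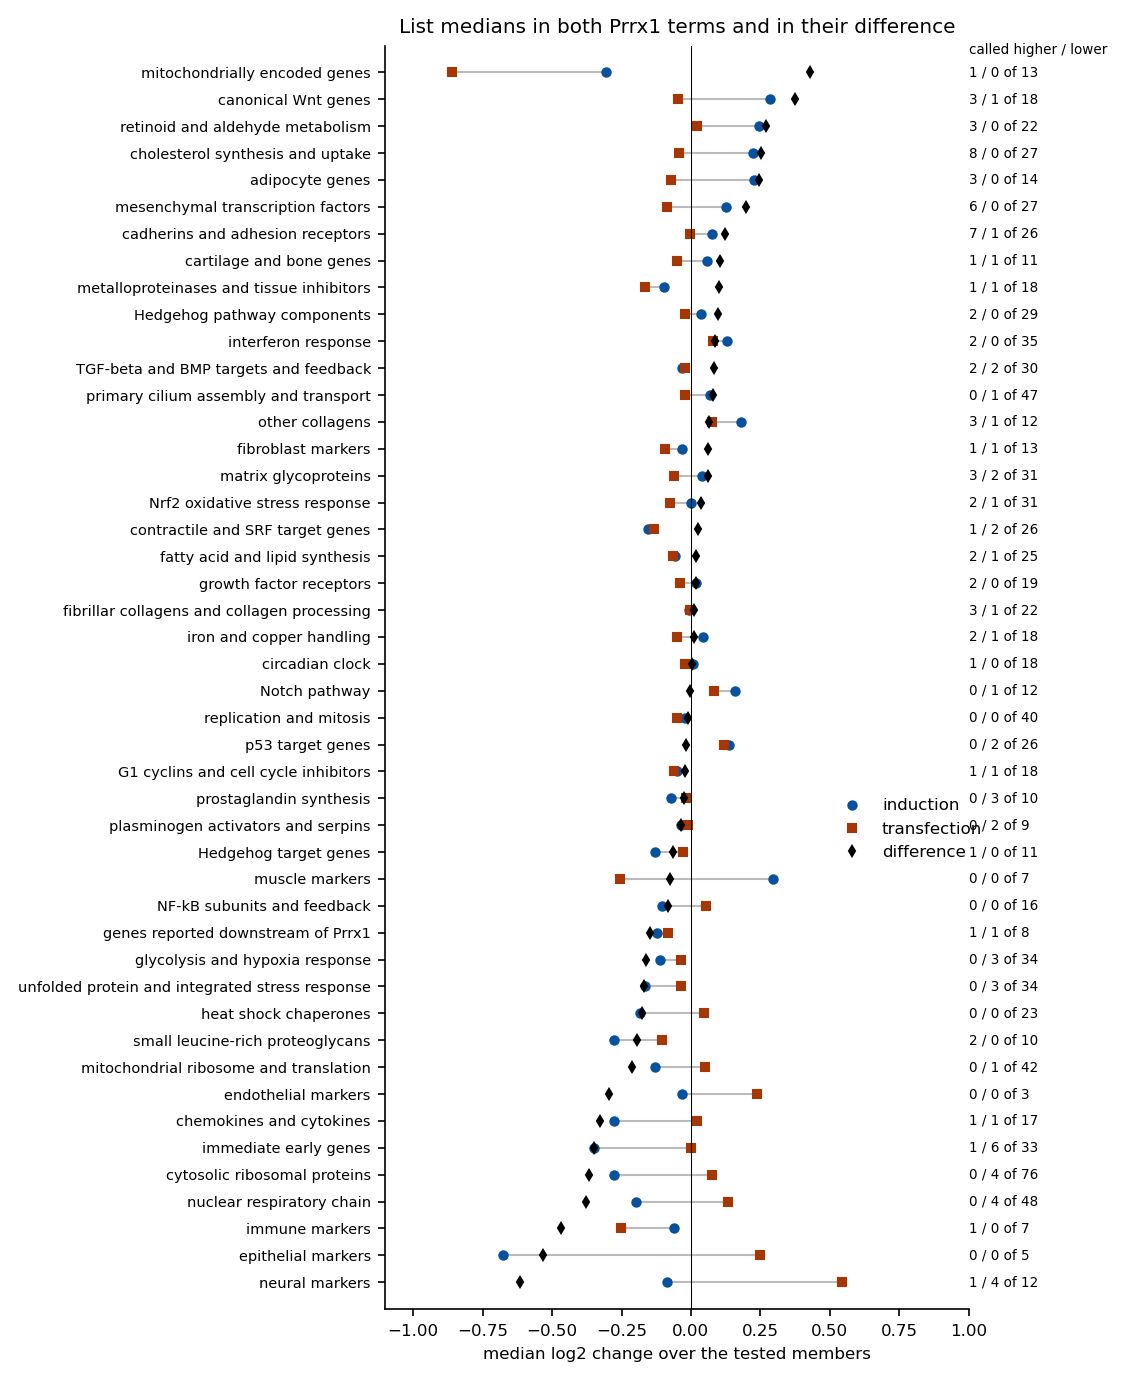
Median log2 change over the tested members of each of 46 lists, by induction, by transfection and in the difference, with the number of members called higher and lower beside each. The transfection medians of most lists lie near 0, while that of the 13 mitochondrially encoded genes is −0.86.

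Lists of the nuclear respiratory chain and of translation had medians of opposite sign by the 2 routes. For the respiratory chain and cytosolic ribosomal proteins, the Snai1 transfection gave medians of the same sign as that of Prrx1. For the mitochondrial ribosome list the medians were −0.0067 by Snai1 and 0.05 by Prrx1 transfection. Of 48 nuclear respiratory chain genes 4 were called lower and 0 higher (8.33%, against 4.02% of all tested genes), and 42 had a negative difference. The median was −0.20 by induction, 0.13 by transfection and −0.38 in the difference. With limma on log2(TPM + 1) the median difference was −0.143. The Snai1 transfection, with the same control libraries, gave a median of 0.14. Cox5b, a subunit of complex IV, was at 129, 104 and 86.9 CPM without doxycycline and at 82.1, 81.7 and 78.5 CPM with it. It was at 128, 88.4 and 92.3 CPM with control plasmid and at 165, 159 and 153 CPM with Prrx1 plasmid (−1.03 ± 0.201, 83.9% unique 31-mers). Its change was 0.63 by Prrx1 transfection (adjusted p = 0.0886) and 0.65 by Snai1 transfection (adjusted p = 0.0143). The complex I subunits Ndufs6 (−1.19, 84.9% unique, 6 refits), Ndufa8 (−0.79, 6 refits) and Ndufa9 (−0.57, 3 refits) were the others.

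The 13 mitochondrially encoded genes had medians of the same sign by both routes, −0.31 by induction and −0.86 by transfection, and of 0.43 in the difference. The median by Snai1 transfection was −0.86 as well. Of the 13 genes mt-Co1 was called higher (0.78, 36.1% unique 31-mers, 2 refits), a share of 7.69% against 4.02% of all tested genes. Their share of counts was 1.20% to 3.34% without doxycycline and 1.74% to 2.22% with it, and 2.03% to 2.45% with control plasmid and 1.07% to 1.48% with Prrx1 plasmid. Without no-doxycycline replicate 1 the median difference was 1.26, and without replicate 2 it was −0.04. With the Snai1 libraries as controls it was −0.37, so its direction rested on the libraries used.

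Of 76 cytosolic ribosomal protein genes 4 were lower and 0 higher (5.26%, near the 4.02% of all tested genes). The list medians were −0.28 by induction, 0.08 by transfection and −0.37 in the difference, and 0.16 by Snai1 transfection. The called genes are Rpl34 (−1.07, 89.6% unique 31-mers, 3 refits), Rps18 (−0.92, 72.1% unique, 11 refits), Rpl11 (−0.91, 81.5% unique, 9 refits) and Rpl3 (−0.84, 62.5% unique). Of 42 mitochondrial ribosome genes 1 was lower (2.38%), Mrpl2 (−0.94), with a median of −0.21, or −0.044 with limma on log2(TPM + 1). Single libraries bear on these counts. Without control plasmid replicate 1, 15 of 48 respiratory chain, 12 of 76 ribosomal and 12 of 34 glycolysis and hypoxia genes were called. Calls over all genes rose from 612 to 1118 in that fit. Without no-doxycycline replicate 2, 10 of 48 respiratory chain and 13 of 76 ribosomal genes were called, while calls over all genes rose to 942. Without no-doxycycline replicate 1 the ribosomal median was −0.06.

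Transcript length moved with these changes. For the 3499 protein-coding genes whose longest transcript has 81 to 2261 bases, the median change was −0.10 by induction, 0.05 by transfection and −0.15 in the difference, and 106 were called lower against 39 higher. For the 3498 genes of 4926 bases or more the median was 0.05 by induction and 0.04 in the difference, and 55 were called lower against 113 higher. The mean length minus effective length, which reflects the fragment length the authors' estimates assume, was 161 to 174 bases without doxycycline and 186 to 188 bases with it. It was 243 to 250.2 bases with control plasmid and 238 to 249 bases with Prrx1 plasmid. The part of fragment length in the lower calls of short genes was not tested. Nor was its part in the respiratory chain and mitochondrial ribosome medians, which lay nearer to 0 with limma on log2(TPM + 1).

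**Figure D5:**
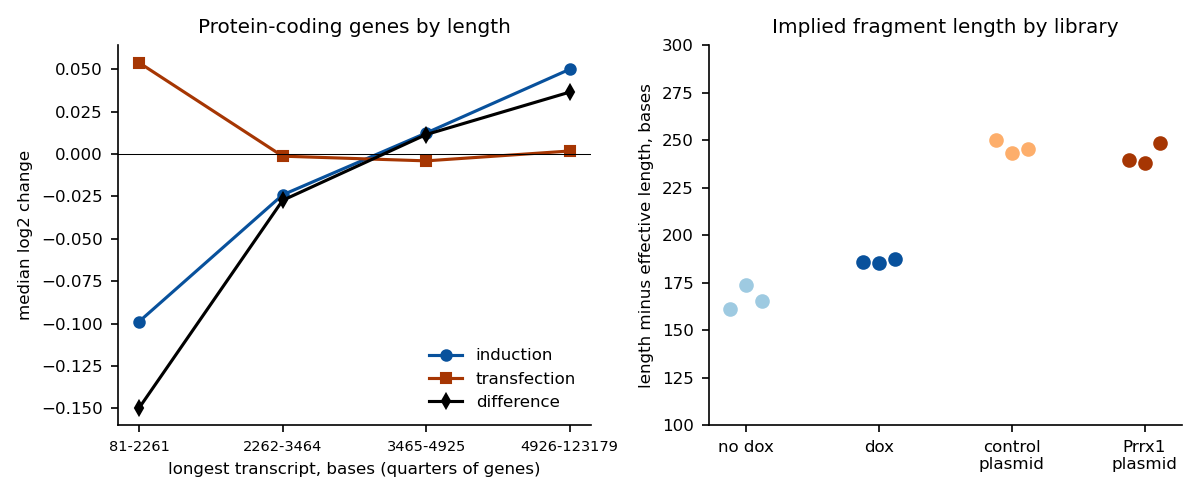
Left, median log2 change by induction, by transfection and in the difference over protein-coding genes in 4 bins by the length of their longest transcript. Right, mean length minus effective length in bases for each library. The shortest bin lies lowest in induction and difference, and the doxycycline libraries lie above those without doxycycline.

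The starting levels of the experiments differed. The no-doxycycline and control plasmid means were over 2-fold apart for 41% of the 612 genes and for 35.6% of all tested genes. Of 268 genes called higher both by induction and in the difference, the doxycycline level of 118 (44.0%) lay nearer to the control plasmid level than the no-doxycycline level had. The same held for 55 of 220 genes called lower by both (25%) and for 412 of the 1137 induction calls (36.2%). Among the named genes Ccnd1, Angptl4 and Thbs2 are of this kind, and Gli2, Adgrg1 and Vcam1 are not.

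Promoters of the called genes were searched for TAATTA, a palindrome that holds the homeodomain core on both strands, in the 300 bases around the start of each gene in the RefSeq table (GRCm38.p6). It was present for 10 of 221 genes called higher with a promoter in the table (4.53%) and 7 of 226 called lower (3.10%), against 420 of 10840 tested genes (3.88%). Of the 12 genes named for the highest differences Ptx3 holds it, and the stretch is shown for that reason with the match in capitals, 97 bases before the start.
Ptx3 promoter (chr3:66219750-66219835, plus strand, GRCm38.p6): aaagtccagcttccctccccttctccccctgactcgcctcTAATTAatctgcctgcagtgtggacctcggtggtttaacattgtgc
A match describes the letters of this window, and Prrx1 binding was not measured here.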

How the data were processed

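The transcript tables of 30 bulk mRNA libraries were deposited by the authors with estimated counts and TPM values per transcript. They used kallisto 0.43.0 and the mm10 build, per the submitters' processing notes, and the annotation release, strand setting and read layout are not given in the sources used here. Of 118491 targets 116816 matched GENCODE M21 transcripts, and the unmatched 1673 held 0.605% to 0.694% of the counts. Estimated counts were summed per gene and rounded. The 12 libraries were fitted with edgeR 4.0.16 (R 4.3.3), with TMM scaling, a count minimum of 10, a total minimum of 15 and the robust quasi-likelihood F test. Of 36047 genes 15218 were tested. The difference is the induction term minus the transfection term, with Benjamini-Hochberg adjustment over all tested genes, a prior count of 0.125 and levels in TMM-scaled CPM. A standard error is the size of the log2 change divided by the square root of F.

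Genes with shared sequence are marked by the percentage of their 31-base stretches (31-mers) found in no other gene. On simulated counts with 200 changed genes, the test recovered 4.5% at 1.5-fold (14638 genes), 46.5% at 2-fold (14640 genes) and 68% at 4-fold (14628 genes). Named genes are Prrx1, Prrx2 and 5 Hedgehog genes, the 12 highest and 12 lowest protein-coding calls reaching 5 CPM, genes called in both terms, and called members of 46 gene lists. The members and lists were chosen with earlier results of these data known. Replicates sharing a number did not deviate together and were not treated as pairs. The alternatives used limma 3.58.1 and DESeq2 1.42.0. Depth limits the precision of low genes, and p-values cover the spread between libraries. Some genes counted in the lists are not reported here by name.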

Additional observations from a re-analysis of the deposited data

Results flagged for a closer look

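The induction and transfection effects differed by an edgeR test of the difference itself for 612 genes. Among genes called by both routes, the changes ran in opposite directions for the pseudogenes Gm12481 (difference −7.98 on the log2 scale), Gm15280 (−2.015) and Gm6166 (1.45). They have 0%, 31.6% and 21.9% unique 31-mers. Their changes were 0.89, 1.075 and −0.62 by Prrx1 transfection, and 0.87, 0.99 and −0.69 by Snai1 transfection with the same control libraries. GFP, an added sequence and no mouse gene, was in the fit. It was higher with Prrx1 plasmid than with control plasmid by 0.55 on the log2 scale (adjusted p = 0.0134). Its difference of −0.86 was called (adjusted p = 0.00122). The Snai1 transfection, with the same control libraries, gave 0.42 for GFP (edgeR adjusted p = 0.0113). With the Snai1 libraries as controls, the GFP change with Prrx1 plasmid was 0.11. GFP was at 186 to 214 CPM with control plasmid and at 278 to 297 CPM with Prrx1 plasmid. In the induction experiment it was at 73.0 to 84.0 CPM without and 62.4 to 72.4 CPM with doxycycline. mScarlet was at 0 CPM in the induction experiment and at 9208 to 16187 CPM in the transfection experiment. Single libraries were not tested for their distance from a group, since groups of 3 are too small for the rule used.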

How the results depend on the processing

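The 612 calls in the difference became 982 with DESeq2, 1853 with all 30 libraries in the fit (39.4% higher, against 49.3%) and 245 with limma on log2(TPM + 1), and ranged from 299 to 1118 with 1 library left out. The 1137 induction calls became 2728 with all 30 libraries (34.8% higher, against 49.4%), 664 with limma on TPM (62.3% higher) and 1780 with the Snai1 libraries as controls, and ranged from 692 to 1485 with 1 library left out. The 41 transfection calls became 148 with DESeq2, 113 with no filter on low counts, 335 with all 30 libraries, 98 with limma voom, 173 with group weights, 141 with each experiment fitted alone and 18 with the Snai1 libraries as controls, and ranged from 20 to 135 with 1 library left out. With the replicate block there were 644, 1136 and 70 calls, and correlations of same-numbered libraries were between −0.02 and 0.06. With the Snai1 libraries as controls 656 genes were called in the difference, 61.4% of them higher, and 420 were shared. The cause of these shifts was not tested. The Ptch1 log2 difference reversed to −0.13 with limma on TPM, −0.0768 without no-doxycycline replicate 1, −0.04 without Prrx1 plasmid replicate 3, and −0.06 and −0.05 without control plasmid replicates 2 and 3, with 0.222 as its highest value with 1 library left out, and the Psca log2 difference to 0.28 with limma on TPM. Of 116 called named genes 59 stayed called whichever library was omitted and 38 under every other setting tried. The Snai1 controls, the fit without GFP and mScarlet, the 90% sequence filter, the group weights and the separate fits were chosen after seeing the data.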
